A study of Mus musculus with 10 samples.

Results

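The immunoglobulin variable (V) and constant (C) region genes were followed through 10 mouse bladder RNA-seq libraries. Members were chosen by annotation and by measured reads: genes that GENCODE annotates as IG_V_gene or IG_C_gene and that had at least 20 raw reads summed over the 10 libraries. This gave 137 of the 231 annotated V and C genes, among 55536 genes counted in all. They were 11 of 13 constant genes and 126 of 218 V genes, of which 58 of 113 lay in the heavy chain locus, 65 of 102 in the kappa locus and 3 of 3 in the lambda locus. Of the 94 genes below the minimum, 31 had no read in any library. The members just inside the minimum, Ighv1-58, Ighv2-2 and Igkv6-32, each had 20 reads, and Igkv4-80 and Ighv10-3, just outside, had 18. The minimum used the summed reads, so the level of a gene over all libraries is a description of how it was chosen.

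The libraries came from homogenised bladders of C57BL/6 mice, 4 wild type (WT), 3 lacking osteomodulin (OMD-/-) and 3 lacking the related small leucine-rich proteoglycan PRELP (PRELP-/-). Both knockouts are constitutive, and both carry a β-galactosidase gene in place of the protein-coding exons. The age and sex of the animals are not given in the sources used here. The labels, followed here, name bladder tissue and these numbers of libraries, whereas the paper describes isolated bladder epithelia and other numbers of mice per genotype, so which material and which animals a library holds is uncertain. As nothing ties each library to an animal of its own, p-values measure only the spread between these libraries. Total counts ran from 20391437 to 46269079 reads. Prelp had from 46 to 74 reads in the PRELP-/- libraries and at least 4848 elsewhere, whereas Omd had from 0 to 12 reads in WT and 0 in OMD-/-, too few to check that label. The summed level of 4 Y chromosome genes and of Xist, the RNA made from the inactive X chromosome, did not follow genotype in these libraries. The Y genes summed to 188 and 163 CPM (TMM-normalised counts scaled to library size) in WT 1 and WT 2 and to 0 and 0.0439 CPM in WT 3 and WT 4, to 18.4, 0.811 and 0.733 CPM in OMD-/- 1 to 3 and to 117, 19 and 18.7 CPM in PRELP-/- 1 to 3. Xist, scaled to library totals without TMM, stood at 1116 and 1358 CPM in WT 3 and WT 4 and at 0.324 to 88.3 CPM elsewhere.

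Antibodies are made by B cells and, in far larger amounts, by plasma cells, the secreting cells that B cells become. Each B cell joins a V gene to short D and J segments in the heavy locus and to a J segment in a light locus, kappa or lambda, so the V gene in its transcripts is a mark that it hands on to all its daughter cells. The constant gene sets the antibody class. IgM and IgD come first, and a later switch places an IgG, IgA or IgE constant gene behind the same V region. IgA and IgM can be carried across epithelia into secretions such as urine.

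V genes are close relatives, which bears on how reads are assigned to them. Across the 126 V members, the coding sequence was a median of 95.4% identical to that of the nearest other V gene or V pseudogene of the same locus, with a range from 60.9% to 99.7%. A stretch of at least 75 bases was shared without a mismatch by 81 of them, and one of at least 100 bases by 53. The sequences below are the last 120 coding bases of the V genes that lead one or another set of libraries, from GENCODE transcripts of build GRCm38, with capitals at the bases that differ from the nearest relative. Igkv3-2 leads most libraries (nearest Igkv3-1), Igkv12-89 leads WT 3 and WT 4 (nearest Igkv12-46), and Igkv6-17 (nearest Igkv6-25) and Ighv1-20 (nearest Ighv1-37) are abundant in OMD-/- 2 and 3. Ighv1-78 (nearest Ighv1-77) leads the heavy locus in PRELP-/- 2 and 3, and Ighv1-42 (nearest Ighv1-30, a pseudogene) leads it in OMD-/- 1.
Igkv3-2: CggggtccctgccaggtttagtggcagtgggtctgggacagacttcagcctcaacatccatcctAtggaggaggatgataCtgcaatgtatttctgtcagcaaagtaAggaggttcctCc
Igkv12-89: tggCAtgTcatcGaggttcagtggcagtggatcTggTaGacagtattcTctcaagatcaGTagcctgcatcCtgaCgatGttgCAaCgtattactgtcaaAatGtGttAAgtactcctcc
Igkv6-17: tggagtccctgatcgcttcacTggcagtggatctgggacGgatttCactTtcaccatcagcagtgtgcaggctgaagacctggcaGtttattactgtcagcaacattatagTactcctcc
Ighv1-20: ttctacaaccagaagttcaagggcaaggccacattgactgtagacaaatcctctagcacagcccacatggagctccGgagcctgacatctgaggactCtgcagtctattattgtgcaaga
Ighv1-78: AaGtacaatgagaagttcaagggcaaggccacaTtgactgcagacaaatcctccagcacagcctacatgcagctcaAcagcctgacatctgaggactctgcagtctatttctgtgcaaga
Ighv1-42: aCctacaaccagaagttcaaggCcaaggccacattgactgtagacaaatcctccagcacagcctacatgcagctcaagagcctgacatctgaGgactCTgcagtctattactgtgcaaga
These stretches lie at chr6:70698948-70699067 on the plus strand for Igkv3-2, chr6:68834846-68834965 on the minus strand for Igkv12-89, chr6:70371874-70371993 on the plus strand for Igkv6-17, and on the minus strand at chr12:114723772-114723891, chr12:115868773-115868892 and chr12:114937113-114937232 for Ighv1-20, Ighv1-78 and Ighv1-42. Igkv12-89 differed from its nearest relative at 21 of the 120 bases and Ighv1-20 at 2 of them. Ighv1-37, the near copy of Ighv1-20 at 98.6% identity, had 2 reads in all against 1859 for Ighv1-20. Reads of a near copy could still have been counted on a member or dropped, so single V genes are less certain than the sums over a locus.

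Immunoglobulin transcripts were most abundant in the OMD-/- libraries and varied widely within both knockouts. The 11 constant genes together stood at 104, 104, 196 and 161 CPM in WT 1 to 4, at 455, 2443 and 2563 CPM in OMD-/- 1 to 3, and at 23.5, 309 and 295 CPM in PRELP-/- 1 to 3. All 3 OMD-/- libraries lay above all 4 WT libraries, by 10.4-fold as a ratio of geometric means, but OMD-/- 2 and 3 exceeded OMD-/- 1 by 5.37 and 5.64 times. PRELP-/- 2 and 3 were above every WT library and PRELP-/- 1 below every one, so the PRELP-/- and WT ranges overlapped. V gene reads separated the libraries in the same way. They summed to 27.6, 26.8, 53.8 and 50.8 CPM in WT, to 175, 947 and 931 CPM in OMD-/- and to 3.81, 131 and 124 CPM in PRELP-/-. In OMD-/- 2 and 3 the members took 0.335% and 0.344% of all counted reads, against 0.014% to 0.0276% in WT. In bulk samples, a change in the number of antibody-producing cells and a change in RNA per cell cannot be told apart.

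**Figure D1:**
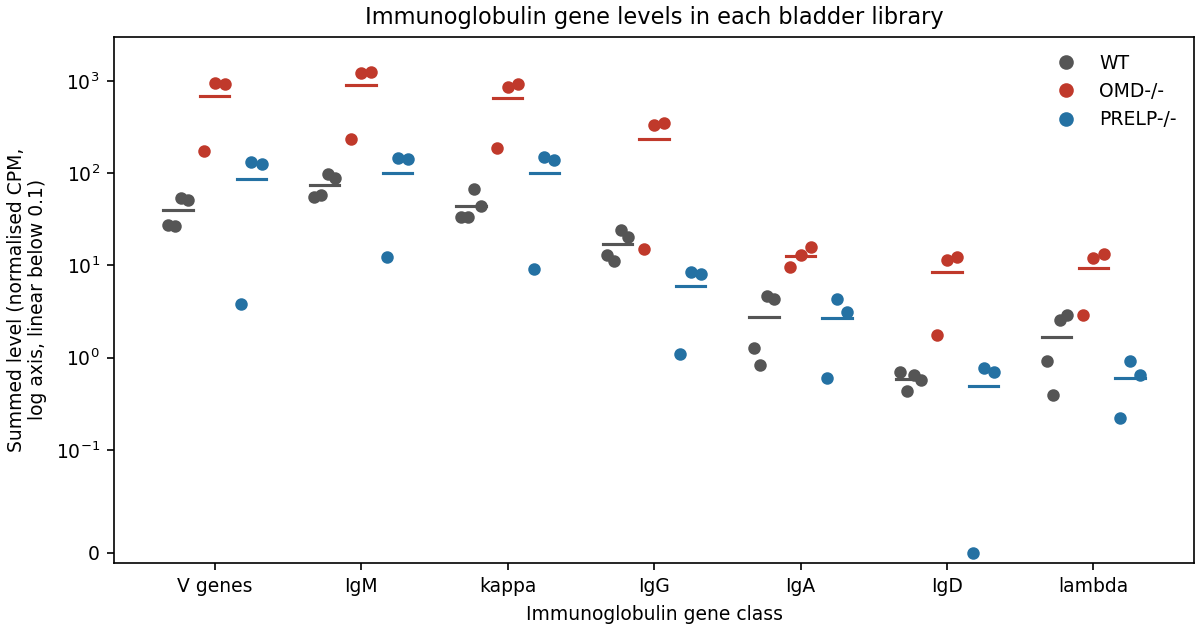
Summed level of each immunoglobulin gene class in every library, in TMM-normalised CPM on a log axis that is linear below 0.1. Points are libraries, bars are group means, IgG sums 4 genes and lambda sums 3 constant genes. OMD-/- 2 and 3 are highest in all 7 classes and PRELP-/- 1 lies below every WT library in all 7.

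Most heavy chain constant reads were of Ighm, the IgM constant gene, in every library. Its share of heavy constant reads was 76.7% to 82.1% in WT, 89.9%, 77.1% and 76.7% in OMD-/- and 87.9%, 91.4% and 92.3% in PRELP-/-. Divided by exon length, so that genes can be compared, the IgM share was 75% to 81.6% in WT and 78.0% to 93.0% in the knockouts. Ighm itself stood at 54.7, 57.3, 97.1 and 88.6 CPM in WT, at 236, 1214 and 1253 CPM in OMD-/- and at 12.4, 145 and 143 CPM in PRELP-/-. It was higher in OMD-/- than in WT by 3.59 ± 0.64 on the log2 scale (SE, n = 3 and 4, adjusted p = 0.0106, edgeR quasi-likelihood F test, Benjamini-Hochberg over all genes tested). Igkc, the single kappa constant gene, rose by 3.87 ± 0.63 on the same scale (adjusted p = 0.00784, edgeR) from a WT mean of 44.4 ± 15.7 CPM (SD). Ighd, the IgD constant gene carried by resting B cells, rose by 3.81 ± 0.60 (adjusted p = 0.00195, edgeR), with 10 to 35 reads per WT library and 37, 269 and 268 in OMD-/-. With libraries that were alike in V gene use summed, none of the 8 constant genes that passed between OMD-/- and WT did so, with adjusted p = 0.293 for Ighm and 0.255 for Igkc (edgeR).

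IgG genes separated OMD-/- 1 from the other 2 libraries of its group. Ighg1, Ighg2b, Ighg2c and Ighg3 together stood at 13.1, 11.2, 24.1 and 20.5 CPM in WT, at 15.2, 336 and 352 CPM in OMD-/- and at 1.10, 8.59 and 8.10 CPM in PRELP-/-. OMD-/- 1 therefore lay inside the WT range, 22.1 and 23.2 times below OMD-/- 2 and 3, while all 3 PRELP-/- libraries lay below all 4 WT libraries. As a share of heavy constant reads, IgG was 16.1% to 19.1% in WT, 5.78%, 21.3% and 21.5% in OMD-/-, and 7.81%, 5.4% and 5.22% in PRELP-/-. The IgG share of OMD-/- 1 lay between those of PRELP-/- 1 and PRELP-/- 2. Ighg2b and Ighg2c made up 69.0% to 100% of IgG reads. They share up to 78 bases without a mismatch at 88.0% identity, so their split is uncertain.

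Ighg2b had 362, 126, 152 and 120 reads in WT, 135, 4924 and 4884 in OMD-/- and 0, 69 and 55 in PRELP-/-. The OMD-/- and WT levels overlapped, with OMD-/- 1 inside the WT range, and the gene passed the test at 4.55 ± 1.15 (log2, adjusted p = 0.0364, edgeR). Ighg3 passed in the same way at 4.06 ± 1.09 (adjusted p = 0.0272, edgeR), again with overlapping groups. Under 15 alternative settings the call of Ighg2b held in 5 and that of Ighg3 in 8. Ighg2c, with 296, 127, 359 and 310 reads in WT, 126, 2622 and 2476 in OMD-/- and 20, 78 and 65 in PRELP-/-, was lower in PRELP-/- than in WT, falling by 2.07 ± 0.50 on the log2 scale (adjusted p = 0.0425, edgeR). Its difference between OMD-/- and WT was 2.93 ± 1.03 (adjusted p = 0.0902, edgeR) and did not pass. Ighg1 differed by 3.40 ± 1.16 (adjusted p = 0.0672, edgeR), with 0 reads in WT 1, WT 2 and PRELP-/- 1. Ighe, the IgE constant gene, had 12 reads in all and was no member.

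IgA was spread differently from IgG over the OMD-/- libraries. Igha had 1.27, 0.83, 4.69 and 4.30 CPM in WT, 9.50, 12.9 and 15.8 CPM in OMD-/- and 0.607, 4.33 and 3.12 CPM in PRELP-/-. The 3 OMD-/- libraries lay close together and above all WT libraries, with a difference of 2.21 ± 0.56 (log2, adjusted p = 0.0203, edgeR). OMD-/- 1 had an IgA share of heavy constant reads of 3.62%, against 0.819% and 0.968% in OMD-/- 2 and 3, whose IgM levels were 5.14 and 5.30 times its own. In WT the IgA level separated WT 3 and 4 from WT 1 and 2. In PRELP-/- against WT, Igha differed by -0.04 ± 0.72 on the log2 scale (adjusted p = 0.979, edgeR).

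Light chain constant reads were almost all kappa. The lambda share, from Iglc1, Iglc2 and Iglc3 against Igkc, was 2.64%, 1.16%, 3.72% and 6.21% in WT 1 to 4, with Wilson 95% intervals of 1.98% to 3.50%, 0.611% to 2.19%, 2.90% to 4.77% and 4.91% to 7.82%. It was 1.52%, 1.39% and 1.41% in OMD-/- (0.0676 SD), and these 3 values differed by less than their counting intervals, the widest of which ran from 1.18% to 1.94%. PRELP-/- 1 to 3 had 2.35%, 0.622% and 0.47%, the first from 4 lambda reads with an interval of 0.919% to 5.89%. The ranges of all 3 groups overlapped. Intervals cover counting error only. Lambda V reads also put WT 3 and 4 above WT 1 and 2, with 1.30% and 1.46% of V reads in WT 1 and 2 and 6.76% and 5.95% in WT 3 and 4.

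Lambda constant genes are few and partly alike, and 2 of them differ by little in the first 119 aligned coding bases, shown here with capitals where they differ.
Iglc2: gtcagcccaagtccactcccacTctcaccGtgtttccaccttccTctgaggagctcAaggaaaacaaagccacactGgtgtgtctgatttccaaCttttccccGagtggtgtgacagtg
Iglc3: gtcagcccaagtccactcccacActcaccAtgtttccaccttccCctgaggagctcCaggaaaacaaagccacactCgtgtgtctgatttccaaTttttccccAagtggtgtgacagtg
These lie at chr16:19198734-19198852 and chr16:19065563-19065681, both on the minus strand, and differ at 7 of the 119 bases, while the whole coding sequences are 96.2% identical. The usage of single lambda genes nonetheless set libraries apart. Iglc2 had 45 reads in WT 1 and 1 read in WT 2, and Iglc1 had 1 and 6 reads in the same libraries. Iglc3 stood at 0 and 0.0872 CPM in WT 1 and 2 and at 1.36 and 1.32 CPM in WT 3 and 4. Iglc1 rose in OMD-/- by 3.49 ± 0.84 (log2, adjusted p = 0.0145, edgeR) and Iglc2 by 2.74 ± 0.68 (adjusted p = 0.0153, edgeR), whereas Iglc3 differed by 0.37 ± 1.09 (adjusted p = 0.833, edgeR). Iglc4 had no read in any library.

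**Figure D2:**
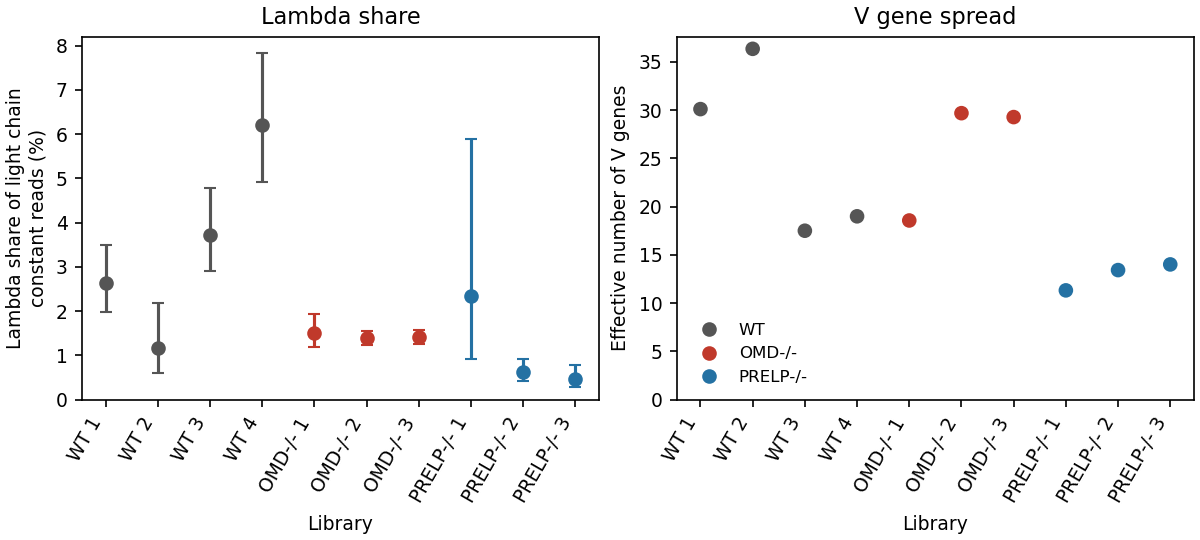
Lambda share of light chain constant reads in percent (left, points with Wilson 95% intervals for counting error) and effective number of V genes (right) in each of the 10 libraries. The 3 OMD-/- libraries have lambda shares between 1.39% and 1.52%, and the 3 PRELP-/- libraries have the lowest effective numbers, 11.3 to 14.0.

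The spread of V reads over V genes differed between libraries and did not follow their total V reads. The effective number of V genes, the count of equally used genes that would give the same Shannon entropy, was 30.1, 36.4, 17.5 and 19.0 in WT, 18.6, 29.7 and 29.3 in OMD-/- and 11.3, 13.4 and 14.0 in PRELP-/-. All PRELP-/- libraries were below all WT and all OMD-/- libraries, while OMD-/- and WT overlapped. PRELP-/- 2 had 3233 V reads and WT 2 had 615, so the lower number in PRELP-/- 2 came with more reads. Drawn down to 69 V reads, the depth of PRELP-/- 1, a library was expected to show 22.9 to 32.8 V genes in WT, 25.9 to 29.6 in OMD-/- and 17 to 23 in PRELP-/-. At 615 V reads, with PRELP-/- 1 left out, the expected numbers were 50.6, 70.0, 54.9 and 53.6 in WT and 62.0 and 62.8 in PRELP-/- 2 and 3, and the direction against WT turned. The 5 leading V genes held 63.6% and 62.6% of V reads there, against 36.7% and 36.6% in WT 1 and 2 and 58.4% and 56.4% in WT 3 and 4.

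A single kappa gene, Igkv3-2, led the V reads of 7 of the 10 libraries. It had 276, 108, 3 and 3 reads in WT 1 to 4, against 1522, 6100 and 5499 in the OMD-/- libraries and 7, 1525 and 1245 in the PRELP-/- libraries. Its share of V reads was 19.9% and 17.6% in WT 1 and 2 but 0.244% and 0.259% in WT 3 and 4. The WT libraries thus fell into 2 sets for this gene. It reached 41.6% in OMD-/- 1 and 47.2% and 46.6% in PRELP-/- 2 and 3, above the 27.5% and 27.1% of OMD-/- 2 and 3. In WT 3 and 4 the leader was Igkv12-89, with 395 and 345 reads, or 32.2% and 29.8% of V reads. That gene had 0 reads in WT 1, WT 2 and OMD-/- 2 and at most 15 in any other library. In PRELP-/- 1 Igkv5-39 led with 18 of 69 reads.

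Heavy chain V genes marked the same sets of libraries. Ighv1-55 led the heavy locus in all 4 WT libraries, with 55, 29, 142 and 123 reads, or 13.4% and 16.4% of heavy V reads in WT 1 and 2 and 40.3% and 33.7% in WT 3 and 4. Ighv1-20 led it in OMD-/- 2 and 3 with 950 and 902 reads, and had 6 reads in OMD-/- 1, 1 in PRELP-/- 2 and 0 in the 4 WT libraries. Ighv1-85 had 778 and 817 reads in OMD-/- 2 and 3, 25 in OMD-/- 1 and at most 1 elsewhere. Ighv1-78 led in PRELP-/- 2 and 3 with 179 and 161 reads, against 18 and 20 in OMD-/- 2 and 3 and none in WT. Ighv1-42 led in OMD-/- 1 with 217 reads, and PRELP-/- 2 and 3 came next with 88 and 58, ahead of 20 and 16 in OMD-/- 2 and 3. In PRELP-/- 1 the leading heavy gene, Ighv1-50, had 3 reads, too few to rank.

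**Figure D3:**
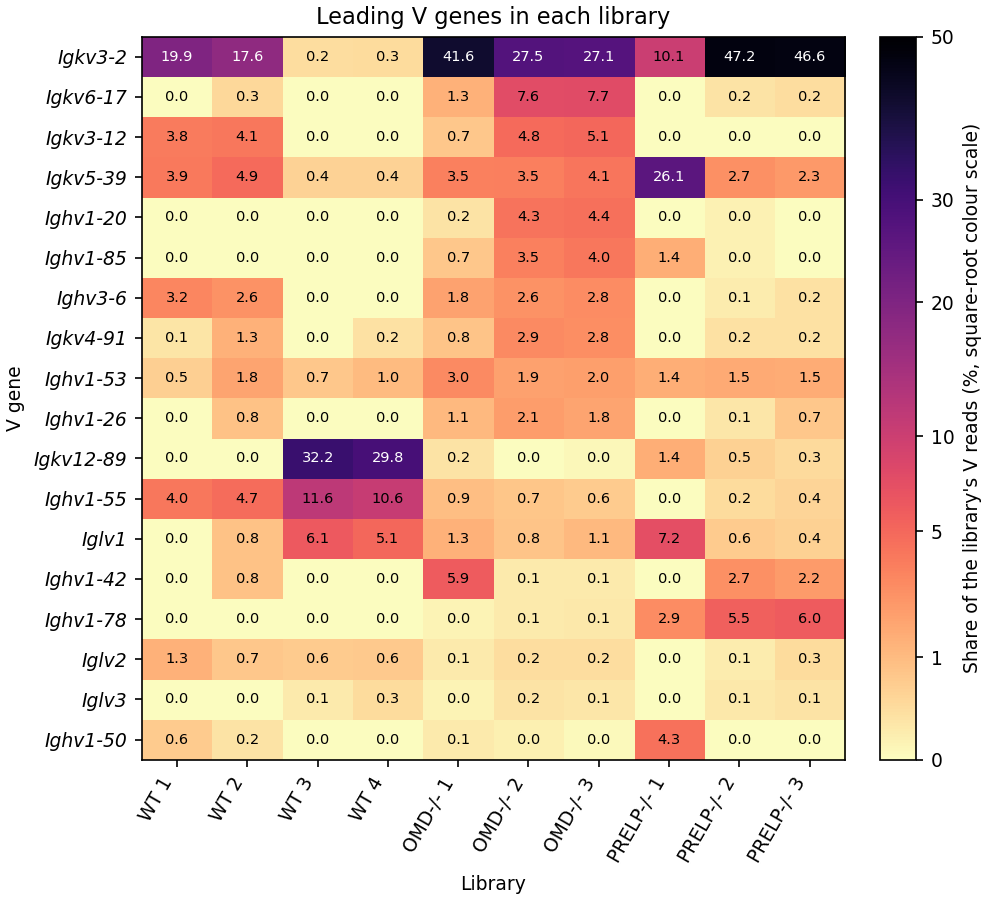
Share of each library's V reads (in percent, square-root colour scale) for the 5 leading V genes of the heavy and kappa loci, the 3 lambda V genes and every gene that leads a locus in some library. Igkv3-2 holds 17.6% to 47.2% in 7 libraries and under 1% in WT 3 and 4, where Igkv12-89 holds 32.2% and 29.8%.

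Compared over all V members, the libraries fell into pairs. For each pair of libraries the smaller of the 2 shares of every V gene was added up, giving 100% for identical use and 0% for no gene in common. OMD-/- 2 and 3 had 94.6% in common, PRELP-/- 2 and 3 had 93.2%, WT 3 and 4 had 87.9% and WT 1 and 2 had 76.6%. The other 8 pairs within a genotype had 25.9% to 57.9% in common, and the 33 pairs of different genotypes 12.4% to 65.4%. The closest of the latter were OMD-/- 1 with PRELP-/- 3 and with PRELP-/- 2, at 65.4% and 65.1%, above the 57.9% or less that OMD-/- 1 had in common with the libraries of its own genotype. WT 1 and WT 3 had less in common than WT 1 and any OMD-/- library. The 4 alike pairs shared 9 or 10 of their 10 leading V genes, other pairs within a genotype 2 to 5 and pairs between genotypes at most 5.

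**Figure D4:**
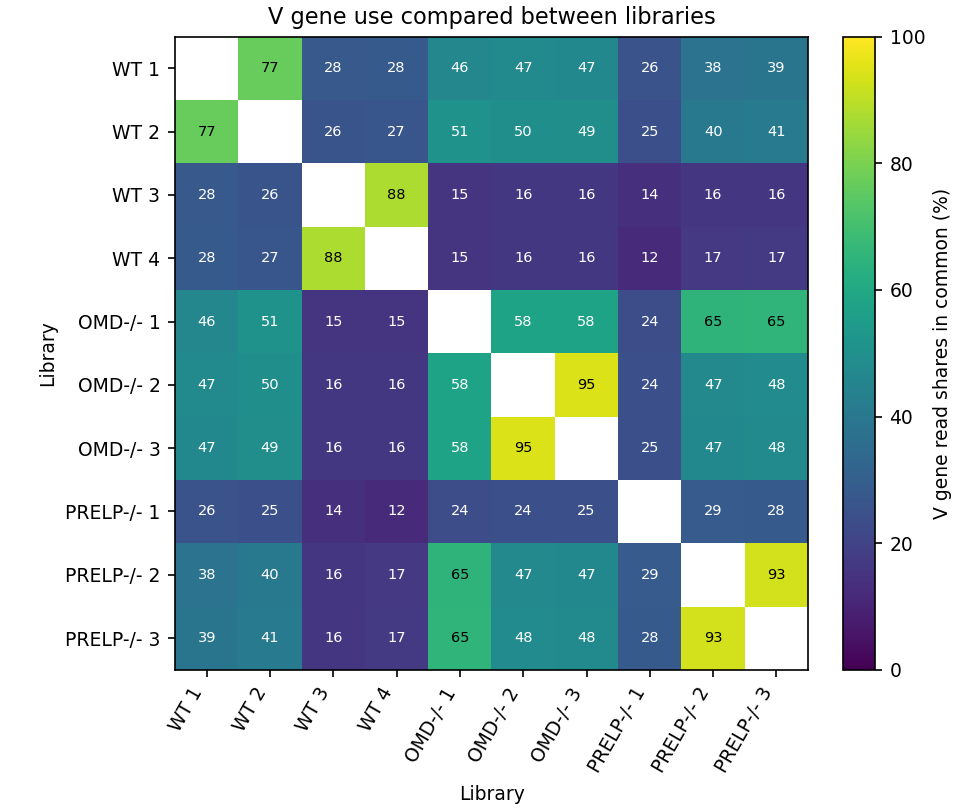
Percent of V gene read shares that each pair of the 10 libraries has in common, with libraries on both axes and the value printed in each cell. The 4 highest cells pair WT 1 with 2, WT 3 with 4, OMD-/- 2 with 3 and PRELP-/- 2 with 3.

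The alike pairs were close in V counts but not identical. A chi-square test of homogeneity on V counts gave 1.38 to 3.26 per degree of freedom within the 4 alike pairs, where sampling noise alone gives about 1. The lowest, WT 3 and 4 at 1.38 over 21 V genes, was near that value. The other pairs within a genotype gave 12.8 to 58.2. Such values cannot tell whether a pair shares material, since library preparation also adds spread. For all genes other than immunoglobulin genes the same statistic was 3.33 to 13.6 in the alike pairs and 25.7 to 274 in the other pairs within a genotype. Pairs of different genotypes ran from 14.0 to 423. The alike pairs thus had the lowest values elsewhere in the transcriptome too. WT 1 with WT 2, at 13.6, was barely below OMD-/- 1 with PRELP-/- 2, at 14.0. The statistic also grows with depth, and WT 1 was the deepest library. The alike pairs were kept as separate libraries. Whether the 2 libraries of a pair share an animal, a litter or a cage was not tested, and the labels do not say. With the 4 pairs summed, which leaves 2 libraries per group and was tried after seeing the data, 14 members passed between OMD-/- and WT, beside 9.06% of all genes, and 5 of the 14 were among the calls made with the libraries kept apart. In that setting 0 of 38 members passed by edgeR between PRELP-/- and WT, beside 0.0709% of all genes. Between PRELP-/- and OMD-/- it was 0 of 77, beside 0% of all genes, so these zeros say nothing particular to the members. An unadjusted p under 0.05 by edgeR was reached by 6 and 48 members. The share of all genes is not given for these counts, so they are not read as a result about the members.

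Because OMD-/- 2 and 3 were so rich in immunoglobulin reads, they weighed most in the choice of V members. They held 75.2% of the 56533 V reads and 74.0% of the 152852 constant reads. Of the 126 V members, 31 had over 90% of their reads in these 2 libraries and 81 would have reached the minimum of 20 without them. A read in all 10 libraries was found for 6 V members, namely Igkv19-93, Igkv4-55, Igkv5-39, Igkv6-15, Igkv3-2 and Ighv1-53. WT 1 stood out in the other direction. At 46269079 reads it was the deepest library and had 1388 V reads, yet V members with a read numbered 53, against 70 in WT 2 with 615 V reads. V members with exactly 1 read numbered 2 in WT 1 and 11 in WT 2, and over all genes 3.24% of those detected in WT 1 had a single read, against 6.73% to 12.9% in the other libraries. The cause of this shortage of low counts was not tested, and the number of genes detected in WT 1 is given with that limit.

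Between OMD-/- and WT, 59 of the 137 members had enough reads to be tested, and 37 passed at an adjusted p under 0.05 (edgeR), 36 higher and 1 lower in OMD-/-. The background was 29.4% of all 16647 genes tested, with 14.3% higher and 15.1% lower. The members' count is not support for a direction. Of the 59, 44 had enough reads in fewer than 3 WT libraries, so they reached the filter only with the help of OMD-/- libraries. The other 15 had enough reads in at least 3 WT libraries, and 8 of these passed. Of the 11 constant genes, 8 passed. The median log2 difference over the tested members was 3.81, beside 0.00 over all genes tested, a value that the filter pushes in the same direction as the count. Levels did not overlap for 35 higher members and 1 lower member, beside 20.5% and 18.5% of all genes tested.

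Of the 10 smallest adjusted p values, 6 belonged to kappa V genes. Igkv3-5, at chr6:70663275-70663895, had 1, 2, 0 and 0 reads in WT, 95, 291 and 278 in OMD-/- and 4, 86 and 63 in PRELP-/-. The 3 OMD-/- libraries were far above every WT library (adjusted p = 1.99e-05, edgeR), and the ratio of summed normalised reads was 397, with an exact 95% counting interval of 135 to 1932. Its nearest relative, Igkv3-10, is 98.3% identical. Igkv6-25 had 0 reads in all WT libraries and 37, 38 and 35 in OMD-/-, at least 14.7-fold higher against a floor of 3 reads per WT library (adjusted p = 0.000167, edgeR). Its reads were nearly even among the 3 OMD-/- libraries, unlike those of Igkv3-5.

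Ighv1-53, at chr12:115158403-115158835, was read in every library. It had 7, 11, 8 and 12 reads in WT and 110, 429 and 407 in OMD-/-, a difference of 5.34 ± 0.56 on the log2 scale (adjusted p = 0.000249, edgeR). It passed in all 15 alternatives, as did Igkv3-5, Igkv6-25 and Igkv1-135. Igkv1-135, Igkv6-23, Igkv4-72, Ighv14-4, Ighv9-3 and Igkv6-15 completed the 10 smallest adjusted p values together with Ighd, with log2 differences of 4.52 to 6.16. Igkv3-2, for all its reads, differed by 6.06 ± 1.07 (adjusted p = 0.0116, edgeR), with WT 3 and 4 far below WT 1 and 2. Ighv1-20 and Ighv1-78 did not reach the filter, which asks for enough reads in 3 libraries, and Ighv1-20 was at least 242-fold higher in OMD-/- against a floor of 3 reads per WT library. Igkv17-121 was the member that fell, by 1.33 ± 0.40 on the log2 scale (adjusted p = 0.0280, edgeR), with 58, 14, 21 and 17 reads in WT and 8, 7 and 8 in OMD-/-. This call held in 6 of 15 alternatives, and was lost among others with DESeq2 and without any single OMD-/- library. The gene had 52 and 43 reads in PRELP-/- 2 and 3. Its near copy Igkv17-127, 97.5% identical and alike over a run of 143 bases, had 15, 7, 19 and 17 reads in WT and 8, 66 and 47 in OMD-/-. How reads were split between these genes was not tested, so the fall is uncertain.

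Without OMD-/- 1, the library with the lowest level of its group, 110 members were tested against WT and 89 passed, beside 25.5% of all genes in that fit. Without OMD-/- 2 or OMD-/- 3 the count was 28 or 26, beside 18.2% or 17.2% of all genes. The Y chromosome genes and Xist differed among these libraries. Their part in the result was tested only by adding the Y chromosome level as a covariate. With it 38 members passed, 31 of them in common with the 37, beside 37.7% of all genes.

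Between PRELP-/- and WT, 26 members were tested and 3 passed, all lower in PRELP-/-, beside 7.29% of 16581 genes tested (1.4% higher and 5.89% lower). They were Ighg2c, described above, Igkv10-96 and Igkv1-110. Igkv10-96 had 64, 27, 43 and 64 reads in WT, 34, 121 and 137 in OMD-/- and 0, 2 and 0 in PRELP-/-. No PRELP-/- library came near the WT libraries (adjusted p = 0.00439, edgeR), and WT exceeded PRELP-/- in summed normalised reads by a ratio of 53.5, with an exact 95% counting interval of 14.6 to 445. Igkv1-110 had 29, 11, 17 and 19 reads in WT and 0, 1 and 3 in PRELP-/- (adjusted p = 0.0228, edgeR). Its near copy Igkv1-117, 97.2% identical and alike over a run of 142 bases, had 23, 5, 18 and 26 reads in WT and 0, 116 and 82 in PRELP-/-. How reads were split between these genes was not tested, so the fall of Igkv1-110 is uncertain. The calls of Igkv10-96, Igkv1-110 and Ighg2c held in 13, 10 and 6 of 15 alternatives. This comparison turned on single libraries. Without PRELP-/- 1, 55 members were tested and 26 passed, 21 higher and 5 lower in PRELP-/-, beside 22.2% of all genes in that fit. PRELP-/- 1 also had the highest summed level of 6 blood genes, mainly haemoglobin, at 462 CPM against 35.3 to 70.5 CPM elsewhere. It was also highest for 5 adipose genes, at 1866 CPM against 519 to 878 CPM, and for 8 urothelial genes, at 21650 CPM against 9217 to 15652 CPM. Their part in the result was not tested. Without WT 3, WT 4 or PRELP-/- 2, 1 member passed in each case, beside 3.20%, 3.41% and 2.77% of all genes.

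Between PRELP-/- and OMD-/-, 60 members were tested and 0 passed by edgeR, beside 0.00633% of 15805 genes tested. An unadjusted p under 0.05 was reached by 41, beside 4.51% of all genes, and DESeq2 called 50 of 136, beside 0.300% of all genes. The 60 adjusted values ran from 0.302 to 0.999. Same-numbered libraries of the 2 knockouts deviated together from their group means, but differently numbered libraries were not compared and the labels name no pairs. With the replicate number as a block, 26 of the 60 members passed, 1 higher and 25 lower in PRELP-/-, beside 0.272% of all genes in that fit. Without OMD-/- 1, 23 of 111 members tested passed, all lower in PRELP-/-, beside 0.221% of all genes. Without PRELP-/- 1, 4 passed, 2 in each direction, beside 0.0986%. Igkc stood at 189, 857 and 918 CPM in OMD-/- and at 9.17, 149 and 139 CPM in PRELP-/-, without overlap. Levels did not overlap for 38 of the 60, all lower in PRELP-/-, beside 8.75% of all genes lower and 6.1% higher. Of these 60, 46 had enough reads in all 3 OMD-/- libraries, the high group, so their shared direction is in part fixed by the filter and supports nothing.

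Genes of the B lineage were examined beside the immunoglobulin genes, from lists made by function. Of 15 B cell genes, 13 were tested between OMD-/- and WT, and 12 rose, beside 14.3% of all 16647 genes tested. The part of the read filter in this and the later list counts was not tested. Cd79a, part of the B cell receptor's signalling unit, stood at 1.11, 0.654, 0.438 and 0.439 CPM in WT, at 3.10, 18.2 and 18.4 CPM in OMD-/- and at 0.110, 1.70 and 1.12 CPM in PRELP-/-. It rose in OMD-/- by 4.21 ± 0.65 (log2, adjusted p = 0.00257, edgeR). Ms4a1, which encodes CD20, rose by 4.99 ± 0.85 (adjusted p = 0.00402, edgeR) and had 0 reads in PRELP-/- 1. Other B cell genes that rose included Cd79b, Pax5, Cd22, Cr2, Blk, Fcrla, Spib, Cd37 and Bank1, by 1.46 to 3.98 on the log2 scale. The summed B cell level was 19.7 to 28.4 CPM in WT, 39.4, 150 and 149 CPM in OMD-/- and 17.5, 32.7 and 35.3 CPM in PRELP-/-.

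Plasma cell genes were split. Of 14 tested in OMD-/- against WT, 6 rose and 1 fell, beside 14.3% higher and 15.1% lower among all genes tested. Jchain, which joins IgA and IgM into polymers, stood at 5.51, 5.10, 14.3 and 14.8 CPM in WT, at 30.4, 144 and 140 CPM in OMD-/- and at 1.38, 21.5 and 22.1 CPM in PRELP-/-, and rose in OMD-/- by 3.41 ± 0.73 (log2, adjusted p = 0.0203, edgeR). As for Igkc, WT 3 and 4 stood above WT 1 and 2. Mzb1, a chaperone of antibody assembly, had 0, 0, 4 and 2 reads in WT and 14, 28 and 22 in OMD-/- (4.02 ± 0.79, adjusted p = 0.00384, edgeR). Pou2af1, a B lineage transcription co-activator, Irf4, Derl3 and Slamf7 rose by 3.77, 1.06, 1.45 and 0.87 on the log2 scale, and Eaf2 fell by 0.90. Xbp1 and Sdc1, the most abundant genes of this list, are also made by epithelium. They had 3431 to 9179 and 18765 to 44824 reads per library and did not pass (log2 differences of 0.22 and 0.17). In PRELP-/- against WT, the median log2 difference was 0.14 over the 12 plasma cell genes tested and 0.20 over the 13 B cell genes. No gene of either list passed there by edgeR, beside 7.29% of all genes tested.

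**Figure D5:**
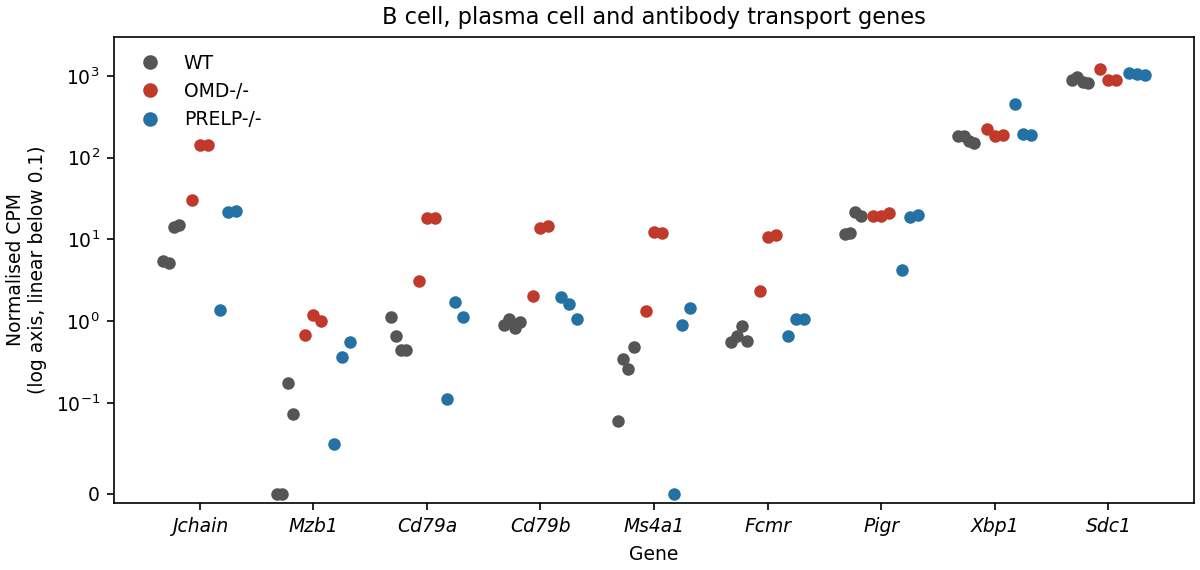
TMM-normalised CPM (log axis, linear below 0.1) of 9 B cell, plasma cell and antibody transport genes, with 1 point per library coloured by genotype. OMD-/- 2 and 3 are highest for Jchain and Cd79a, at 140 to 144 and 18.2 to 18.4 CPM, while Pigr lies between 19.1 and 21 CPM in OMD-/-, inside the WT range.

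Genes that bind, carry or attract antibodies and B cells were examined in the same way. Of 10 Fc receptor and transport genes, 9 were tested in OMD-/- against WT and 4 rose, beside 14.3% of all genes tested. They were Fcmr, the IgM Fc receptor of B cells (3.61 ± 0.50 on the log2 scale), Fcgrt, which protects IgG from breakdown (0.80 ± 0.08), Fcgr3 (0.61) and Fcer1g (0.90). Fcgrt was also the gene of this list that passed in PRELP-/- against WT, at 0.69 ± 0.13 (adjusted p = 0.0168, edgeR), with 48.1 to 51.5 CPM in WT and 70.2, 88.7 and 86.5 CPM in PRELP-/-. Pigr, the receptor that carries IgA and IgM across epithelia, stood at 11.6, 11.8, 21.4 and 19.5 CPM in WT, at 19.1, 19.2 and 21 CPM in OMD-/- and at 4.2, 19.0 and 19.8 CPM in PRELP-/-, with log2 differences of 0.28 and -0.19 (adjusted p = 0.376 and 0.826, edgeR). Its low libraries were WT 1, WT 2 and PRELP-/- 1.

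Of 11 survival and homing signals, 7 were tested and 4 rose in OMD-/-, beside 14.3% of all genes tested. Cxcl13, the chemokine that draws B cells into follicles, rose by 2.0 ± 0.29 (log2, adjusted p = 0.000874, edgeR), from 1.65 to 3.33 CPM in WT to 6.97, 11.5 and 14.3 CPM in OMD-/-. Tnfsf13b, which encodes the survival factor BAFF, Tgfb1 and Vcam1 rose by 0.90, 0.56 and 0.39. In PRELP-/- against WT the 7 had a median log2 difference of -0.03. Among genes that diversify immunoglobulin loci, Rag1 had no read in any library, and Rag2 and Dntt had 1 read each, both in WT 4.

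Markers of T cells, macrophages and lymphoid tissue also rose in OMD-/-, with the summed levels of OMD-/- 2 and 3 well above those of OMD-/- 1. Of 10 T cell genes 7 rose, of 10 macrophage and dendritic cell genes 7 rose, and of 9 follicle and lymph node stroma genes 5 were tested and 4 rose. Among all genes tested, 14.3% were higher. The summed T cell level was 16.7 to 20.9 CPM in WT, 22.3, 62.0 and 60.6 CPM in OMD-/- and 23.2 to 24.1 CPM in PRELP-/-. Macrophage and dendritic cell genes summed to 387 to 462 CPM in WT, 448, 808 and 824 CPM in OMD-/- and 354 to 466 CPM in PRELP-/-. On that list OMD-/- 1 lay inside the WT range. The follicle and lymph node list summed to 6.56 to 9.39 CPM in WT, 13.7, 41.8 and 42.9 CPM in OMD-/- and 8.5 to 11 CPM in PRELP-/-, and 2 of its genes had no read in any library. OMD-/- 2 and 3 were thus the highest libraries on each of these lists and in the immunoglobulin sums. The summed blood level, at 42.1 to 60.8 CPM in OMD-/- and 35.3 to 60.1 CPM in WT, overlapped between these groups. The smooth muscle list, at 1229 and 1074 CPM in WT 3 and 4 and 778 CPM in OMD-/- 1 against 195 to 355 CPM in the other 7 libraries, divided the libraries in yet another way. The part of these cells and tissues in the immunoglobulin levels was not tested.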

How the data were processed

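Bladder RNA of 4 WT, 3 OMD-/- and 3 PRELP-/- libraries was poly(A)-selected and sequenced with a strand-marking kit. The authors deposited raw read counts, 1 whole number for each of 55536 genes and each library. The headers of the deposited count files name HISAT2 alignments, while the submitters' processing notes name STAR 2.5.2b and featureCounts, and the strand setting and the use made of molecular identifiers are not given in the sources used here. The 2 deposited tables of the authors' own comparisons (fold changes and p-values) were not used. All gene identifiers matched GENCODE vM21 (GRCm38).

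The 3 comparisons were fitted separately, each with the libraries of its 2 groups, in edgeR 4.0.16 in R 4.3.3 (TMM, filterByExpr with a minimum count of 10, robust quasi-likelihood F test, two-sided, Benjamini-Hochberg adjustment over all genes tested, threshold 0.05), after a test on simulated data with known changes. Levels are CPM after TMM, except for Xist, which was scaled to library totals only. Summed levels, shares and V gene numbers are given without p-values, as sums over chosen members, and an exact test of them cannot go below 0.0571 for 4 against 3 libraries or 0.1 for 3 against 3. The members and gene lists were chosen with earlier results of these data known. Members named are all constant genes, the 5 V genes with most reads in each locus, the leading V gene of each locus in each library, genes next to the minimum, members that passed (up to the 10 smallest adjusted p per comparison) and members of the marker lists. Igkv17-121 was added after its values were seen. Coding sequences are those of GENCODE transcripts, compared with edlib over the whole length. Alternatives were DESeq2 1.42.0, other scalings, no filter on low counts, 1 fit for all groups, a Y chromosome covariate, other minimum counts, V genes summed by family, each library left out and a replicate block.

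Same-numbered OMD-/- and PRELP-/- libraries correlated in their deviations from the group means (r = 0.30, 0.18 and 0.15), and the replicate numbers were tried as pairs there. The labels give only a running number within each genotype, and differently numbered libraries were not compared. In both knockouts libraries 2 and 3 were alike in V gene use, so these values do not show that the numbers mark pairs. Same-numbered knockout and WT libraries gave r from -0.10 to 0.14. The highest of these, PRELP-/- 2 with WT 2, was close to the 0.15 between the knockouts. Depth was 20391437 to 46269079 reads per library, at which 3 reads are 0.0648 to 0.147 CPM before TMM. Results for some listed genes are not reported here.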

Additional observations from a re-analysis of the deposited data

Results flagged for a closer look

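In WT, a single library stood away from the other 3 for 3 V genes. Igkv6-17 was at 0.0872 CPM, Ighv1-26 at 0.218 CPM and Ighv1-42 at 0.218 CPM in WT 2, from 2, 5 and 5 reads, and at 0 in WT 1, 3 and 4. In this way 44 groups were examined. With 0 reads in 3 libraries, any reads in the other library set it apart, so a chance rate of about 1 in 20 does not apply to such counts. Immunoglobulin genes outside the members also had more reads in some knockout library than in any WT library. Constant genes below the minimum had 5 reads at most, in PRELP-/- 3, against 0 in WT, and all were on Ighe. J genes had 25 reads in OMD-/- 2 against 12 or fewer in WT, V genes below the minimum 151 reads in OMD-/- 3 against 28 or fewer, and V pseudogenes 31 reads in OMD-/- 3 against 7 or fewer.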

How the results depend on the processing

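The number of members that passed between OMD-/- and WT, 37 of 59 as reported, is given here beside the share of all genes that passed. It was 88 of 136 with DESeq2 (16.8%) and 61 of 137 without a filter on low counts (16.1%). With the libraries alike in V gene use summed it was 14 of 90 (9.06%), 5 of the 37 among them. With 1 library left out it was 26 to 89 (17.2% to 29.5%), with 89 without OMD-/- 1. It was 37 to 42 with other scalings, all groups in 1 fit or the Y chromosome covariate (14.7% to 37.7%). Of the 37, 35 also passed with DESeq2. Between PRELP-/- and WT, 3 of 26 as reported, it was 12 of 127 with DESeq2 (beside 8.17% of all genes) and 8 of 127 without the filter (3.76%). It was 10 of 70 with all groups in 1 fit (14.7%) and 6 of 26 with the Y chromosome covariate (6.07%). With alike libraries summed it was 0 of 38 (0.0709%). With 1 library left out it was 1 to 26 (2.77% to 22.2%), with 26 without PRELP-/- 1. Between PRELP-/- and OMD-/-, 0 of 60 as reported, it was 50 of 136 with DESeq2 (beside 0.300% of all genes) and 2 of 136 without the filter (0.0173%). It was 1 of 70 with all groups in 1 fit (0.0177%). With 1 library left out it was 0 to 23 (0.00615% to 0.221%), with 23 without OMD-/- 1 and 4 without PRELP-/- 1. The cause of these differences was not tested. With the replicate number as a block, the counts were 22, 0 and 26 in the 3 comparisons, beside 21.2%, 0.683% and 0.272% of all genes. The first 2 were also without WT 4, which has no partner. Its removal alone gave 28 and 1, beside 25.5% and 3.41%. The labels give only a running number within each genotype, so none of these block counts rests on a known pairing.

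Summed levels of OMD-/- against WT kept their direction under every alternative. Differences near 0 turned. On the log2 scale, the V gene level of PRELP-/- against WT, 0.07 as reported, was -0.19 with library totals only, -0.77 with alike libraries summed and -0.79 to 1.76 with 1 library left out. With 1 library left out, the constant gene level of PRELP-/- against WT ran from -0.70 to 1.15, IgM from -0.77 to 1.0, IgD from -2.09 to 0.33 and IgA from -0.62 to 0.77, each highest without PRELP-/- 1 and lowest without PRELP-/- 2. With the replicate block, the constant gene level was 0.0056 and IgA 0.25, the same values as without WT 4, which this setting leaves out. The effective number of V genes in OMD-/- minus WT, 0.10 as reported, was -0.38 with no minimum count, -2.41 by V family, -2.14 with the replicate block, -2.35 with alike libraries summed and -2.64 to 3.74 with 1 library left out. The number of V genes at equal depth in OMD-/- minus WT, 0.96 as reported, was -1.30 by V family, -0.23 with the replicate block and -0.49 to 2.82 with 1 library left out. That of PRELP-/- minus WT was -6.53 as reported and 5.12 at the depth of WT 2 without PRELP-/- 1. The lambda share of PRELP-/- minus OMD-/- ran from -0.90 to 0.047 percentage points with 1 library left out. Both summing of alike libraries and the second depth were chosen after seeing the data. PRELP-/- 1, with 69 V reads, limits each value that rests on it.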

Other observations

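Other immunoglobulin segments added little. The 14 J genes had 96 reads in all and the 19 D genes 6. The 158 V pseudogenes had 100 reads together. Reads on the plus-strand kappa V genes, which include Igkv3-2, numbered 27692 over 25 members, and those on the minus-strand kappa V genes 12890 over 40 members. The Igkv3 family held 46.2% of V reads in OMD-/- 1 and 52.9% and 52.1% in PRELP-/- 2 and 3, against 36.6% and 36.7% in OMD-/- 2 and 3 and 0.2% to 28.6% in WT. The Ighv1 family, by contrast, held 14.3% to 23.2% of V reads in all 10 libraries. V genes with at least 10 reads in both libraries numbered 94 in OMD-/- 2 and 3, 25 in PRELP-/- 2 and 3, 17 in WT 3 and 4 and 15 in WT 1 and 2. Of these, 15 in OMD-/- 2 and 3 (3.77% of their V reads), 2 in PRELP-/- 2 and 3 (2.37%) and 0 in either WT pair had at most 3 reads in any other library. The limits are raw reads, so these counts depend on V read depth, which was 22196 and 20318 in OMD-/- 2 and 3 and 615 to 1388 in WT.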
